A study of Mus musculus with 2 samples.

Results

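The 93 genes described here are nuclear genes for the mitochondrial respiratory chain and its ATP synthase. They were taken from 32285 gene rows by name: rows that start with Nduf, Uqcr, Atp5, Cox4, Cox5, Cox6, Cox7 or Cox8, plus Sdha, Sdhb, Sdhc and Sdhd, with 1 row left out for a name in -ps. Of the 93, 36 encode complex I, 8 are complex I assembly factors, 4 belong to complex II, 8 to complex III, 20 to complex IV and 17 to complex V. Cyc1, a nuclear-encoded complex III subunit, does not match these names and is outside the list. The 13 protein-coding genes of the mitochondrial genome, named mt- in the files, were set beside them.

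The knockout library came from CD4creZfp362flox/flox mice, in which Cre made from a CD4 transgene acts on the floxed Zfp362 gene, and the control library from Zfp362flox/flox mice, which carry the floxed alleles and no Cre. Both groups were 26 to 33 weeks old. In both, cells of colon and small intestine were pooled and sorted as positive for CD4 and CD44 and negative for CD62L, CD8a, CD11c, CD45R and F4/80, the surface profile of effector CD4+ T cells. Nuclei went into a joint assay of nuclear RNA and chromatin accessibility (10x Multiome) with 1 library per genotype, and 7 mice are named, for each genotype or in total, which is not made clear. Animals pooled in a library cannot be told apart. With 1 library per genotype there is no replicate error and no test: every ratio below compares these libraries, and its 95% interval covers counting error only.

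The respiratory chain passes electrons from NADH through complex I, and from succinate through complex II, by way of complex III to oxygen at complex IV. Complexes I, III and IV pump protons across the inner mitochondrial membrane, and complex V uses their return to make ATP. Most subunits are encoded in the nucleus, translated in the cytosol and imported, while complexes I, III, IV and V also hold subunits that are transcribed and translated inside mitochondria. In T cells the chain is known to be needed for activation and for the suppressive function of Foxp3-positive regulatory T cells.

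The knockout library held 2391 barcodes and 9348999 unique molecular identifiers (UMIs, one per captured RNA molecule), and the control library 4223 barcodes and 10803590 UMIs. Barcodes under 500 UMIs or under 300 detected genes, or above 10% mt- UMIs, were dropped, which left 2346 knockout and 4176 control nuclei with medians of 2302 and 2007 UMIs. The libraries shared 11 barcode sequences. Zfp362 had 59 UMIs in knockout and 97 in control kept nuclei. Because the labels do not say which exons are flanked by loxP sites, those counts check nothing about the deletion.

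Nuclei were divided by rule. Cd3-positive nuclei had at least 1 UMI of Cd3d, Cd3e or Cd3g, which encode chains of the T cell receptor complex, and these were divided by whether they had at least 1 UMI of Foxp3, the transcription factor that defines regulatory T cells. There were 220 knockout and 358 control Foxp3-positive nuclei, 1164 knockout and 2111 control Foxp3-negative nuclei, and 962 knockout and 1707 control Cd3-negative nuclei. Cd3-negative nuclei made up 41.0% of kept knockout nuclei and 40.9% of kept control nuclei.

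The labelled cell type was only partly borne out by its markers. In Cd3-negative nuclei, Kit, a receptor of innate lymphoid and mast cells, had 558 counts per 1000000 UMIs (CPM) in the knockout and 551 CPM in the control library, against 154 and 129 CPM in Foxp3-negative nuclei. Trac, which encodes the constant region of the T cell receptor alpha chain, had 146 CPM in knockout and 173 CPM in control Cd3-negative nuclei, against 491 and 590 CPM in Foxp3-negative nuclei. Nuclei without a Cd3 UMI may therefore include T cells whose Cd3 RNA was not captured, and Foxp3-negative nuclei can include regulatory T cells whose Foxp3 RNA was not captured. Markers of epithelium summed to 26.3, 19.8 and 64.9 CPM in knockout Foxp3-positive, Foxp3-negative and Cd3-negative nuclei, against 40.4, 24.4 and 96.3 CPM in control nuclei. Myeloid markers summed to 154, 152 and 413 CPM in knockout nuclei of the same 3 populations, against 179, 120 and 415 CPM in control nuclei, and B cell markers to at most 62.7 CPM in any. Stromal or endothelial markers summed to 183, 182 and 157 CPM in knockout nuclei of those populations, against 147, 149 and 140 CPM in control nuclei. Of their 7 genes, Col3a1, Pdgfra, Col1a2, Dcn and Col1a1 had 0 UMIs in knockout Foxp3-positive nuclei. In Foxp3-positive nuclei, Foxp3 itself had 168 CPM in the knockout and 348 CPM in the control library. That was 352 UMIs over 220 knockout nuclei and 534 UMIs over 358 control nuclei. Foxp3-positive nuclei were chosen for a Foxp3 UMI and were deeper in the knockout library, so the levels do not compare Foxp3 expression. The 6 regulatory T cell markers, Foxp3 among them, summed there to 4602 and 5599 CPM, against 3296 and 3171 CPM in Foxp3-negative nuclei. Kit had 177 CPM in knockout and 170 CPM in control Foxp3-positive nuclei. Cd4 had 733 CPM in knockout and 270 CPM in control Foxp3-negative nuclei. The part that other cell types play in the respiratory chain values was not tested.

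The summed RNA of the 93 genes was lower in knockout than in control nuclei in all 3 populations. In Foxp3-positive nuclei it was 5806 CPM in the knockout library and 7503 CPM in the control library, a log2 ratio of -0.37 (95% interval -0.41 to -0.33), so that the knockout level was 77.4% of the control level. In Foxp3-negative nuclei it was 6441 CPM in the knockout and 7854 CPM in the control library (log2 ratio -0.29, -0.31 to -0.27). In Cd3-negative nuclei it was 6493 CPM in the knockout and 7443 CPM in the control library (-0.20, -0.23 to -0.17).

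**Figure D1:**
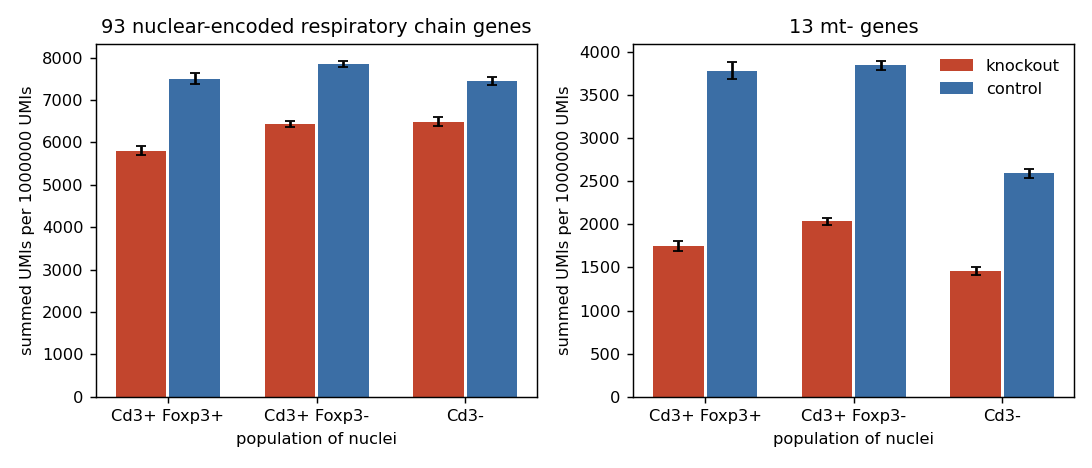
Summed UMIs per 1000000 UMIs of the 93 nuclear-encoded genes (left) and of the 13 mt- genes (right) in the 3 populations of nuclei, knockout bars left of control bars, with 95% Poisson intervals that cover counting error only. All 6 knockout bars are lower than their control bars, from 1746 against 3781 CPM for mt- genes in Foxp3-positive nuclei to 6493 against 7443 CPM for nuclear-encoded genes in Cd3-negative nuclei.

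These values are shares of UMIs, and UMIs per nucleus did not follow them. Cd3-positive nuclei were deeper in the knockout library, with medians of 2930 UMIs in knockout and 2167 UMIs in control nuclei. With such unlike depths, UMIs per nucleus do not give molecules per nucleus. A Cd3-positive nucleus held 32.0 UMIs of these genes in the knockout library and 23.0 UMIs in the control library on average. Cd3-negative nuclei, whose medians of 1992 UMIs in the knockout and 1852 UMIs in the control library lay closer together, held 15.2 UMIs per nucleus in each library.

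RNA from the mitochondrial genome was lower in the knockout library by a larger ratio. The mt- sum was 1746 CPM in knockout and 3781 CPM in control Foxp3-positive nuclei, a log2 ratio of -1.12 (-1.18 to -1.06). It was 2035 CPM in knockout and 3846 CPM in control Foxp3-negative nuclei (-0.92, -0.95 to -0.88), and 1460 CPM in knockout and 2593 CPM in control Cd3-negative nuclei (-0.83, -0.89 to -0.77). For every 100 UMIs of the nuclear-encoded genes there were 30.1 mt- UMIs in knockout and 50.4 in control Foxp3-positive nuclei, 31.6 and 49.0 in Foxp3-negative nuclei, and 22.5 and 34.8 in Cd3-negative nuclei.

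The 2 most abundant mt- RNAs encode catalytic and structural core subunits of complex IV. In Foxp3-negative nuclei mt-Co1 had 588 CPM in the knockout and 1084 CPM in the control library, and mt-Co3 had 528 and 1068 CPM. Nuclear-encoded complex IV genes summed to 1690 CPM in knockout and 2168 CPM in control nuclei of that population. The complex I gene mt-Nd5 had the mt- log2 ratio closest to 0 among those with at least 100 UMIs in each population, at -0.84 in Foxp3-positive, -0.43 in Foxp3-negative and -0.17 in Cd3-negative nuclei.

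Other RNA shares moved with these sums. The 86 cytosolic ribosomal protein genes, whose mature transcripts are abundant in cytoplasm, had log2 ratios of -0.54, -0.42 and -0.35 in Foxp3-positive, Foxp3-negative and Cd3-negative nuclei. Malat1, a long noncoding RNA kept in the nucleus, had log2 ratios of 0.03, 0.10 and 0.11. The part that carried-over cytoplasm plays in the respiratory chain result was not tested.

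Gene by gene, the lower share was spread over the list. A log2 ratio of at least 0.5 in size, among genes with at least 100 UMIs over both libraries, was used to count genes past a fold. In Foxp3-positive nuclei 71 of the 93 genes reached 100 UMIs, their median log2 ratio was -0.36 against 0.01 over all 4988 genes at that depth, and 67 lay below 0. Of the 71, 22 were lower past the fold, where 8.46% of all genes were, and 0 were higher, where 6.09% of all genes were.

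In Foxp3-negative nuclei 81 genes reached 100 UMIs, with a median of -0.30 against -0.00 over all 8080 genes, and 77 lay below 0. Lower past the fold were 13 of the 81, against a background of 4.2%, and 0 were higher against 3.09%. In Cd3-negative nuclei 78 genes reached 100 UMIs, with a median of -0.21 against -0.01 over all 6392 genes, and 72 lay below 0. Only Ndufb5 was lower past the fold there, against a background of 3.05%, and 0 were higher, also against 3.05%. Over all Cd3-positive nuclei, 12 of 83 genes were lower (background 4.42%) and 0 higher (background 3.3%), with a median of -0.33. The 3 populations come from the same libraries, so their ratios do not support one another.

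**Figure D2:**
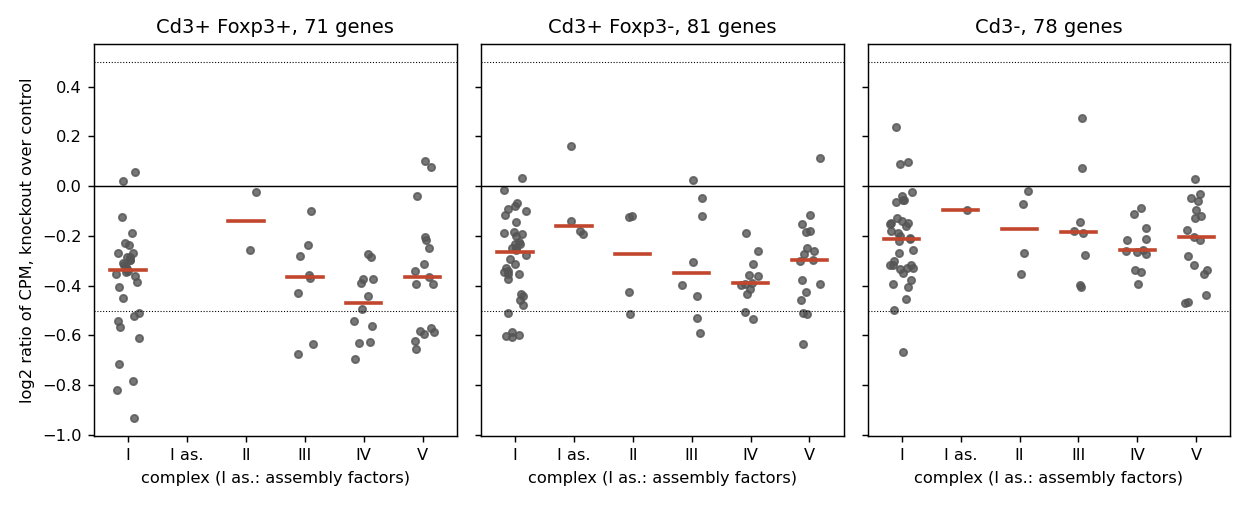
Log2 ratio of CPM, knockout over control, of each gene with at least 100 UMIs over both libraries (dots), by complex and population, with the median of each complex as a red line and dotted lines at the fold of 0.5. Most dots lie between 0 and -0.5, the medians of complexes I to V are all below 0, and the spread is widest in Foxp3-positive nuclei, from -0.93 (Ndufa5) to 0.10 (Atp5md). Over all genes, too, the shares past the fold were largest in Foxp3-positive nuclei, at 8.46% lower and 6.09% higher.

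Complex I, the NADH dehydrogenase, had summed log2 ratios of -0.36 in Foxp3-positive, -0.26 in Foxp3-negative and -0.19 in Cd3-negative nuclei. The 4 lowest genes in Foxp3-positive nuclei all belonged to it, but it also supplied 32 of the 71 genes counted there. Of those 32, 9 were lower past the fold, against 22 of the 71. The other complexes had 0 of 2 (II), 2 of 8 (III), 5 of 12 (IV) and 6 of 17 (V) lower past the fold. Ndufa5, an accessory subunit of the arm that takes up NADH (start at chr6:24527570, minus strand, mm10), had 60 UMIs or 28.7 CPM in knockout and 84 UMIs or 54.8 CPM in control Foxp3-positive nuclei, a log2 ratio of -0.93 (-1.44 to -0.44). Its log2 ratio was -0.29 in Foxp3-negative and -0.30 in Cd3-negative nuclei.

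The other 3 were Ndufs8, a core subunit that carries iron-sulphur clusters, and Ndufb8 and Ndufb2, accessory subunits of the membrane arm. Ndufs8 had 21.0 CPM in knockout and 37.2 CPM in control Foxp3-positive nuclei (-0.82, -1.42 to -0.23). Ndufb8 had 31.0 and 53.5 CPM (-0.78, -1.28 to -0.30), and Ndufb2 had 28.2 and 46.3 CPM (-0.71, -1.24 to -0.20). Each rests on fewer than 100 UMIs per library, and Ndufb2 had the other sign in Cd3-negative nuclei, with 37.8 CPM in the knockout and 35.3 CPM in the control library.

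Of the 4 lowest genes in Foxp3-negative nuclei, 3 were also accessory subunits of complex I, which supplied 36 of the 81 genes counted there. Of those 36, 5 were lower past the fold, against 13 of the 81. Ndufa8 had 18.6 CPM in knockout and 28.4 CPM in control Foxp3-negative nuclei (-0.61, -0.99 to -0.23). Ndufa11 had 40.5 and 61.5 CPM (-0.60, -0.86 to -0.35), and Ndufa12 had 23.0 and 35.0 CPM (-0.60, -0.95 to -0.27). In Cd3-negative nuclei these genes had log2 ratios of -0.33, -0.04 and -0.45. Ndufb5, a membrane-arm subunit (chr3:32736990, plus strand), had 32.5 CPM in knockout and 51.7 CPM in control Cd3-negative nuclei (-0.67, -1.09 to -0.27), and -0.34 in Foxp3-negative nuclei.

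The 2 complex I genes with most UMIs differed from each other. Ndufa13, an accessory subunit also known as GRIM-19, had 168 CPM in knockout and 241 CPM in control Foxp3-positive nuclei, 192 and 229 CPM in Foxp3-negative nuclei, and 172 and 216 CPM in Cd3-negative nuclei, with log2 ratios of -0.52, -0.26 and -0.33. Ndufs4, an accessory subunit whose loss in mice causes complex I deficiency, had 149 CPM in knockout and 147 CPM in control Foxp3-positive nuclei, 146 and 153 CPM in Foxp3-negative nuclei, and 138 and 117 CPM in Cd3-negative nuclei. Its log2 ratios were 0.02, -0.07 and 0.24, and only the last interval (0.02 to 0.45) excluded 0. Ndufs4 spans 100 kb, far more than most of the list.

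The 8 complex I assembly factors, which help build the complex and then leave it, were scarce. Their sum was 87.4 CPM in knockout and 119 CPM in control Foxp3-positive nuclei, 104 and 105 CPM in Foxp3-negative nuclei, and 89.8 and 111 CPM in Cd3-negative nuclei. None reached 100 UMIs in Foxp3-positive nuclei. Ndufaf2 had 28.8 CPM in knockout and 25.8 CPM in control Foxp3-negative nuclei (0.16, -0.18 to 0.50), and Ndufaf8 had 18.03 and 19.9 CPM (-0.14, -0.56 to 0.27), both with intervals that include 0.

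Complex II, succinate dehydrogenase, is also an enzyme of the citric acid cycle and has no mitochondrially encoded subunit. Its 4 genes summed to 178 CPM in knockout and 202 CPM in control Foxp3-positive nuclei, 175 and 210 CPM in Foxp3-negative nuclei, and 177 and 198 CPM in Cd3-negative nuclei. The log2 ratios were -0.18 (-0.40 to 0.04), -0.26 (-0.39 to -0.13) and -0.16 (-0.34 to 0.02), so only the second interval excluded 0. Sdha, the flavoprotein that oxidises succinate, had log2 ratios of -0.02, -0.12 and -0.02. Sdhb, the iron-sulphur subunit, had 51.7 CPM in knockout and 69.4 CPM in control Foxp3-negative nuclei (-0.43, -0.66 to -0.20).

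Complex III, the cytochrome c reductase, had summed log2 ratios of -0.40, -0.30 and -0.16 in the same order of populations. Uqcrh, the hinge subunit near cytochrome c1, had 166 CPM in knockout and 223 CPM in control Foxp3-positive nuclei (-0.43), 185 and 244 CPM in Foxp3-negative nuclei (-0.40), and 188 and 215 CPM in Cd3-negative nuclei (-0.19). Uqcrq, a small subunit, had 62.1 and 99.1 CPM in Foxp3-positive nuclei (-0.67, -1.02 to -0.33), while its intervals in Foxp3-negative nuclei (-0.24 to 0.14) and Cd3-negative nuclei (-0.18 to 0.32) include 0.

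Complex IV, cytochrome c oxidase, had the lowest summed ratio of the 5 complexes in each population, at -0.44 (-0.51 to -0.37), -0.36 (-0.40 to -0.32) and -0.22 (-0.28 to -0.17). Those intervals overlap the intervals of complex III, which run from -0.52 to -0.28, from -0.37 to -0.23 and from -0.25 to -0.06. All 12 of its genes with at least 100 UMIs lay below 0 in every population. Cox7c, a small subunit, had 225 CPM in knockout and 295 CPM in control Foxp3-positive nuclei (-0.39), 252 and 287 CPM in Foxp3-negative nuclei (-0.19), and 260 and 281 CPM in Cd3-negative nuclei (-0.11). Cox4i1, a regulatory subunit, had 217 and 281 CPM in Foxp3-positive nuclei (-0.37), 214 and 289 CPM in Foxp3-negative nuclei (-0.43), and 230 and 244 CPM in Cd3-negative nuclei (-0.09).

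Several complex IV subunits exist in a general and a tissue-restricted form, and these nuclei held the general forms. Per kilobase of exon, over all kept nuclei, Cox8a had 306 CPM in knockout and 390 CPM in control nuclei, Cox6a1 had 231 and 281 CPM, and Cox4i1 had 141 and 176 CPM. The heart and muscle form Cox8b, the testis form Cox8c and Cox7b2 had 0 UMIs in either library, which at 3 UMIs allows up to 0.321 CPM in the knockout and 0.278 CPM in the control library. Cox6a2, the muscle partner of Cox6a1, had 0 UMIs in knockout and 1 in control nuclei, Cox6b2 had 3 and 3, and Cox7a1 had 9 and 11.

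The remaining general forms were well above their partners. Per kilobase of exon, Cox6b1 had 134 CPM in knockout and 178 CPM in control nuclei, Cox7a2 had 102 and 135 CPM, Cox7b had 70.1 and 90.0 CPM, and Ndufa4 had 92.7 and 123 CPM. Cox4i2, the partner of Cox4i1 known from lung and from low oxygen, had 31 UMIs in knockout and 38 in control nuclei, or 4.21 and 4.47 CPM per kilobase of exon. Ndufa4l2, the partner of Ndufa4 that low oxygen induces, had 7 UMIs in knockout nuclei, all of them Cd3-negative, and 3 in control nuclei, all of them Foxp3-negative.

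Complex V, the ATP synthase, had summed log2 ratios of -0.33, -0.25 and -0.19. Atp5o, which joins the peripheral stalk to the catalytic head (chr16:91931687, minus strand), was the lowest member in Foxp3-negative nuclei, with 262 UMIs or 52.5 CPM in knockout and 471 UMIs or 81.6 CPM in control nuclei (-0.63, -0.86 to -0.42). It had 47.3 and 71.1 CPM in Foxp3-positive nuclei (-0.59), and 54.7 and 59.8 CPM in Cd3-negative nuclei (-0.13, -0.46 to 0.20). Its interval in Cd3-negative nuclei includes 0.

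Of the 22 genes lower past the fold in Foxp3-positive and the 13 in Foxp3-negative nuclei, 4 were in both: Atp5o, Cox5a, Cox7a2l and Uqcrfs1. The like overlap over all genes was not computed, and both populations come from the same libraries. The overlap is therefore given as a description only. Cox5a, a structural subunit of complex IV, had 64.5 CPM in knockout and 93.9 CPM in control Foxp3-positive nuclei (-0.54, -0.89 to -0.19), and 76.5 and 109 CPM in Foxp3-negative nuclei (-0.51, -0.69 to -0.32). Cox7a2l, which helps join complexes III and IV into supercomplexes, had 80.2 and 130 CPM in Foxp3-positive nuclei (-0.69, -0.999 to -0.39), and 85.9 and 124 CPM in Foxp3-negative nuclei (-0.53, -0.71 to -0.36). Uqcrfs1, the Rieske iron-sulphur protein of complex III, had 34.4 and 53.5 CPM in Foxp3-positive nuclei (-0.64, -1.11 to -0.16), and 35.0 and 52.8 CPM in Foxp3-negative nuclei (-0.59, -0.87 to -0.32). Their log2 ratios in Cd3-negative nuclei were -0.35, -0.22 and -0.40.

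The 2 complex V genes with most UMIs had ratios above the complex V sum in each population. Atp5a1, the alpha subunit of the catalytic head, had 223 CPM in knockout and 259 CPM in control Foxp3-positive nuclei (-0.22, -0.41 to -0.02), 240 and 260 CPM in Foxp3-negative nuclei (-0.12, -0.23 to -0.01), and 260 and 255 CPM in Cd3-negative nuclei (0.03, -0.12 to 0.18). Atp5md, a small membrane subunit (chr19:47090625, minus strand), had 213 and 198 CPM in Foxp3-positive nuclei (0.10, -0.11 to 0.32), 271 and 250 CPM in Foxp3-negative nuclei (0.11, 0.00 to 0.22), and 228 and 237 CPM in Cd3-negative nuclei (-0.06). Its start lies within the promoter window of Pdcd11.

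Nuclear depth moved with the Foxp3-positive result. Foxp3-positive nuclei had a median of 4816 UMIs in the knockout and 2867 UMIs in the control library, and nuclei with over 2 times their library's median held 87.2% of the knockout and 63.0% of the control Foxp3-positive UMIs. Without those nuclei, the sum of the 93 genes was 7708 CPM in knockout and 8128 CPM in control Foxp3-positive nuclei, a log2 ratio of -0.08 (-0.15 to -0.00). The same exclusion gave -0.22 in Foxp3-negative nuclei and -0.25 in Cd3-negative nuclei.

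Other settings moved the Foxp3-positive value too. With each nucleus given equal weight the log2 ratio there was -0.17, without Cd3-positive nuclei that also had a UMI of Kit, Il1r1, Ncr1 or Arg1 (genes of innate lymphoid cells) it was -0.14. After thinning to 1000 UMIs it was -0.19, but thinning also drops nuclei below that depth and classes the others anew, which left 47 knockout and 105 control Foxp3-positive nuclei.

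The counts of genes past the fold in Foxp3-positive nuclei were different under these settings. Lower were 3 of 23 genes without the deep nuclei (6.04% of all genes under that setting), 9 of 71 with equal weights (8.08%) and 4 of 40 without the double-labelled nuclei (6.36%). Higher was 1 of 23 without the deep nuclei (5.32%), and 0 under the other 2 settings (8.46% and 5.12%). The median over those genes was -0.05, -0.17 and -0.20 in the same order. The part that pairs of nuclei in 1 droplet play was not tested. The mt- ratio in Foxp3-positive nuclei was -0.91 without the deep nuclei and -0.69 after thinning.

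**Figure D3:**
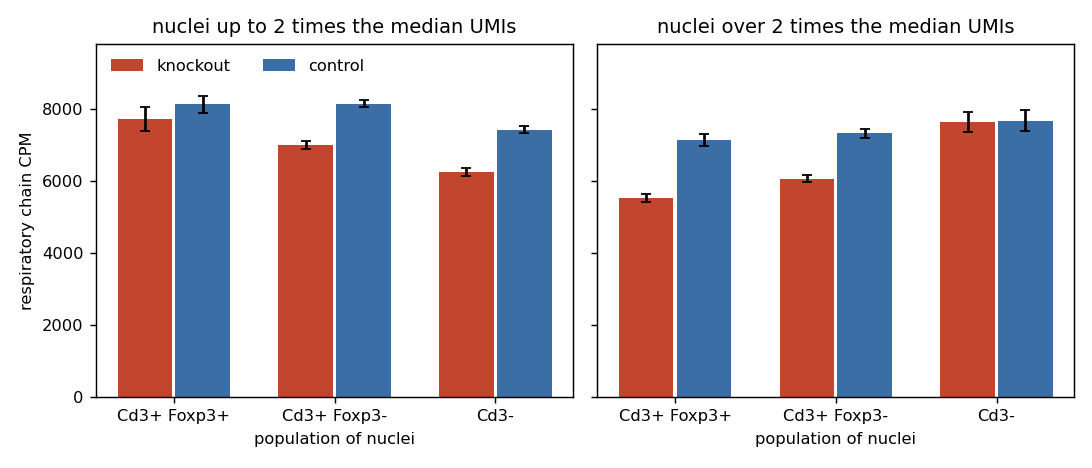
CPM of the 93 genes in nuclei with up to (left) and over (right) 2 times the median UMIs of their library, by population, knockout bars left of control bars, with 95% Poisson intervals. In Foxp3-positive nuclei the libraries had 7708 and 8128 CPM below that depth and 5526 and 7137 CPM above it, while in Cd3-negative nuclei they had 6249 and 7417 CPM below it and 7635 and 7673 CPM above it.

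In Foxp3-negative nuclei the lower share was present on both sides of that depth. The deep ones had 6059 CPM in knockout and 7319 CPM in control nuclei (log2 ratio -0.27), and the others had 6999 and 8140 CPM (-0.22). In Cd3-negative nuclei it was present in the shallower ones (-0.25) and the interval included 0 in the 48 knockout and 60 control deep ones (-0.01, -0.08 to 0.07). Gene counts past the fold in the Cd3-negative class, 1 of 78 lower with all UMIs, were different under these settings. There 5 of 78 were lower without the deep nuclei (4.08% of all genes), 6 of 78 with equal weights (4.18%) and 7 of 73 after thinning (3.72%), which leaves another set of nuclei in the class, 1436 knockout and 2308 control. In Foxp3-negative nuclei, with 13 of 81 lower as first given, 8 of 79 were lower without the deep nuclei (3.85%), 8 of 81 without the double-labelled nuclei (4.69%) and 8 of 56 after thinning (4.45%). What moved these counts was not tested.

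Within a library the list differed little between populations. The sum in Foxp3-positive over Foxp3-negative nuclei had a log2 ratio of -0.15 in the knockout and -0.07 in the control library. Cd3-positive over Cd3-negative nuclei gave -0.05 in the knockout (6253 against 6493 CPM) and 0.06 in the control library (7780 against 7443 CPM). The median over genes was -0.08 in the knockout and 0.07 in the control library, where the medians of all genes were 0.07 and 0.08. Both knockout contrasts changed sign without the deep nuclei, to 0.14 for Foxp3 and 0.18 for Cd3.

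The mt- sum separated Cd3-positive from Cd3-negative nuclei more. Cd3-positive over Cd3-negative nuclei had a log2 ratio of 0.42 in the knockout and 0.56 in the control library, and Foxp3-positive over Foxp3-negative nuclei had -0.22 in the knockout and -0.02 in the control library. Past the fold, 1 gene of the list was higher and 3 were lower in Cd3-positive than in Cd3-negative knockout nuclei, against backgrounds of 17.0% and 15.0%. In the control library 0 were higher and 1 was lower, against 17.0% and 15.3%. In Foxp3-positive over Foxp3-negative nuclei, 0 were higher and 1 was lower in the knockout library, against 3.23% and 3.54%. The control library also had 0 higher and 1 lower, against 5.28% and 5.41%.

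Since mt- RNA is made outside the nucleus, nuclei were also compared at like mt- content. Each nucleus was thinned to 1000 UMIs before it was classed, which moves T cell nuclei that lose their Cd3 UMI into the Cd3-negative class, and then binned by its mt- UMIs. Of Foxp3-negative nuclei, 21.4% in the knockout and 9.45% in the control library had 0 mt- UMIs, and 7.43% and 26.9% had 6 or more. The respiratory chain genes gave 6.53 UMIs per 1000 in knockout and 7.48 in control Foxp3-negative nuclei with 0 mt- UMIs, 6.96 and 7.78 with 1 to 2, 7.18 and 8.0 with 3 to 5, and 8.45 and 8.69 with 6 or more.

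In Foxp3-negative nuclei the knockout value was lower in each of the 4 bins, and the interval of the ratio excluded 0 in 3. The log2 ratios were -0.20 (-0.32 to -0.08), -0.16 (-0.23 to -0.09), -0.16 (-0.24 to -0.07) and -0.04 (-0.18 to 0.10), from the lowest bin to the highest. In Cd3-negative nuclei they were -0.19, -0.30, -0.17 and 0.09 (-0.06 to 0.23). Foxp3-positive nuclei left 3 to 26 knockout and 14 to 37 control nuclei per bin, too few to compare. Ribosomal protein UMIs were also higher where mt- UMIs were, with 67.0 per 1000 in knockout and 83.9 in control Foxp3-negative nuclei of the lowest bin and 87.5 and 98.9 in the highest.

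**Figure D4:**
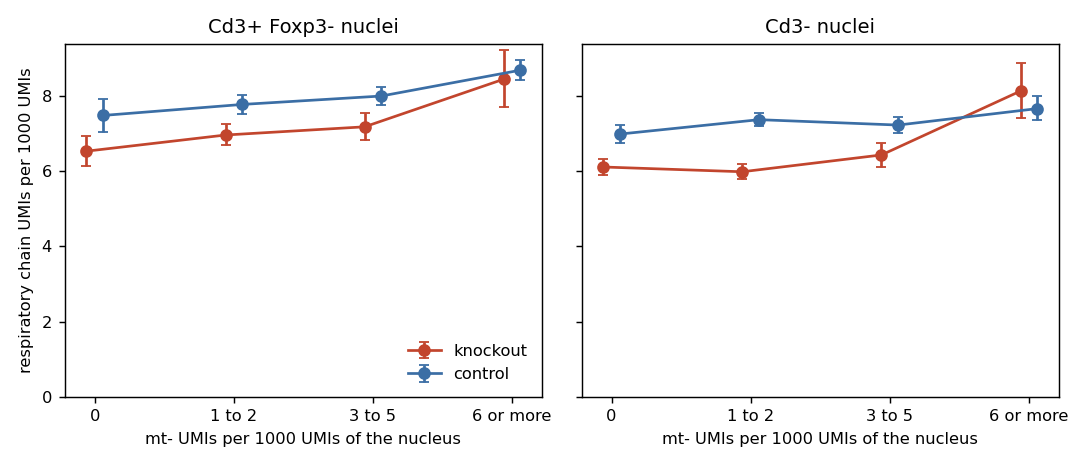
UMIs of the 93 genes per 1000 UMIs in nuclei thinned to 1000 UMIs, by the nucleus's mt- UMIs, for Foxp3-negative (left) and Cd3-negative nuclei (right), with 95% Poisson intervals. Knockout points lie below control points in the first 3 bins of both panels, and both libraries rise steadily with mt- UMIs in Foxp3-negative nuclei (from 6.53 and 7.48 in the lowest bin), while in Cd3-negative nuclei the highest bin, at 8.13 and 7.67, is above lower bins that show no steady order.

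Gene length also went with the ratio over all genes. Among all genes in Cd3-positive nuclei the median log2 ratio was -0.16 for spans under 10 kb, -0.05 for 10 to 30 kb and 0.06 for over 30 kb. For the respiratory chain genes the medians were -0.37 over 56 genes, -0.33 over 22 genes and -0.05 over 5 genes. All genes here include the list and the ribosomal protein genes. Without members, mt- and ribosomal protein genes, the medians were -0.13, -0.04 and 0.06. The bins are wide and do not match spans gene by gene. The median of the 5 long genes of the list was near 0. The part of gene length was not tested.

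Chromatin at the promoters of these genes differed little between the libraries. Peaks were called per library, 85738 in the knockout and 83851 in the control, and 85.8% and 87.7% of them overlapped a peak of the other library. Of the 93 genes, 88 had a shared peak within 500 bases of a start, and Cox6a2, Cox7b2, Cox8b, Cox8c and Ndufa4l2 had no peak there. For 37 of the 88 the peak also lay at the start of another gene, so its counts cannot be given to 1 gene.

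The summed promoter peaks had 5104 counts per 1000000 counts in shared peaks in knockout and 5179 in control Cd3-positive nuclei, a log2 ratio of -0.02 (-0.04 to -0.00). In Cd3-negative nuclei they had 4830 and 4856 (-0.01, -0.03 to 0.02). The median over 88 genes in Cd3-positive nuclei was -0.01, as it was over all 15225 genes with at least 100 peak counts. No promoter of the list was past the fold: 0 were higher and 0 lower in Cd3-positive nuclei, where 2.75% and 1.02% of all promoters were, and 0 and 0 in Cd3-negative nuclei, where 2.07% and 1.19% were. Divided by Foxp3, 0 were past the fold in Foxp3-positive nuclei (backgrounds of 2.73% higher and 1.89% lower) and 0 in Foxp3-negative nuclei (2.73% and 1.1%).

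**Figure D5:**
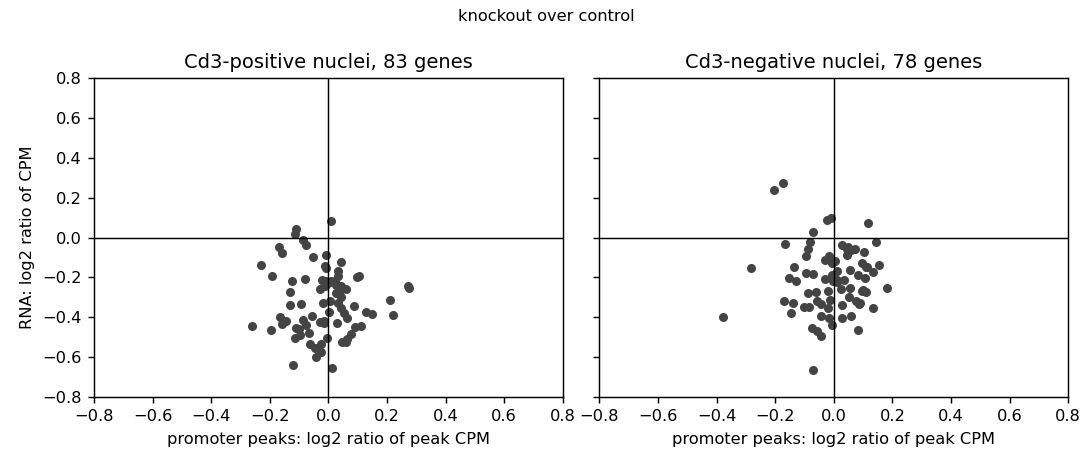
Log2 ratio of CPM in RNA (vertical) against log2 ratio of promoter peak counts (horizontal), knockout over control, for the 83 genes in Cd3-positive and 78 genes in Cd3-negative nuclei with at least 100 UMIs and 100 peak counts. The points lie mostly below 0 on the RNA axis and on both sides of 0 on the promoter axis, where they run from -0.26 to 0.27 in Cd3-positive nuclei.

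Several genes with low RNA ratios had promoter ratios whose intervals include 0. The Atp5o promoter peak (chr16:91931176-91932090) had 1201 counts or 49.4 per 1000000 in knockout and 1068 counts or 53.7 in control Cd3-positive nuclei (-0.12, -0.29 to 0.05). Ndufa5 had 72.3 and 78.0 (-0.11, -0.25 to 0.03) and Uqcrfs1 had 56.7 and 58.4 (-0.04, -0.20 to 0.12). Others did not, and their RNA log2 ratios are given for the same Cd3-positive nuclei. Ndufc1, an accessory subunit of the complex I membrane arm, had 47.7 and 57.1 (-0.26, -0.43 to -0.09), beside RNA at -0.45 (-0.76 to -0.14). Its promoter and RNA were at -0.41 (-0.77 to -0.05) and -0.05 in Foxp3-positive nuclei, and at -0.21 and -0.51 in Foxp3-negative nuclei. Ndufa6, a complex I accessory subunit, had 98.1 and 110.0 (-0.16, -0.28 to -0.05), beside RNA at -0.40 (-0.56 to -0.23). Its promoter and RNA were at -0.05 (-0.30 to 0.21) and -0.51 in Foxp3-positive nuclei, and at -0.20 and -0.35 in Foxp3-negative nuclei. Atp5g3, which encodes the c subunit of the membrane ring, had 48.6 and 40.3 (0.27, 0.09 to 0.46), beside RNA at -0.24 (-0.40 to -0.08). Promoters of Ndufc2, Cox8a and Atp5l were also higher, at 0.27, 0.22 and 0.21, beside RNA at -0.25, -0.39 and -0.32. Promoters of Ndufaf7 and Ndufaf4 were lower, at -0.23 and -0.19, beside RNA at -0.14 and -0.19. The other promoter intervals of the list included 0 in Cd3-positive nuclei. Atp5md, with RNA at 0.08 (-0.01 to 0.18), had 76.9 and 76.4 (0.01, -0.13 to 0.15).

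Genes matched to a RefSeq promoter were ranked by promoter peak counts in Cd3-positive nuclei of both libraries together. Those with most counts in each complex and among the assembly factors were Ndufa13, Ndufaf8, Sdhb, Uqcrh, Cox6a1 and Atp5d. Ndufa13 and Atp5d each had 2 peaks per library, which were summed. Their promoter sequence from RefSeq (GRCm38.p6), the 250 bases before the start read 5′ to 3′ on the gene's strand, is given because these are the open regions on which the peak comparison rests. Capitals mark the letters searched for: GCGCA and GCGC with any 1 base between them, known for NRF1, CCGGAAG, known for GABP, and AAGATGG, known for YY1, on both strands; all 3 factors are known regulators of respiratory chain genes. CCGGAAG and AAGATGG can overlap by their shared AAG.
Ndufa13, chr8:69902021-69902270, minus strand: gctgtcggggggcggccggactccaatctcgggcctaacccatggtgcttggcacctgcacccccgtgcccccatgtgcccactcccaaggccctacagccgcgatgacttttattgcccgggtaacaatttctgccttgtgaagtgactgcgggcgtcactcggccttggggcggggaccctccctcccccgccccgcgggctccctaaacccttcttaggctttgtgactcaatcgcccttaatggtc
Ndufaf8, chr11:120098684-120098933, plus strand: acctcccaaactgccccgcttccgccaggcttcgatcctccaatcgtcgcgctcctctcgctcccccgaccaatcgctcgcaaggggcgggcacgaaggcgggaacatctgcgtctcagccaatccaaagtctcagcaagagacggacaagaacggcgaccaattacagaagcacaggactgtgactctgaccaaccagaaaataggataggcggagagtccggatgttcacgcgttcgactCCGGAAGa
Sdhb, chr4:140961021-140961270, plus strand: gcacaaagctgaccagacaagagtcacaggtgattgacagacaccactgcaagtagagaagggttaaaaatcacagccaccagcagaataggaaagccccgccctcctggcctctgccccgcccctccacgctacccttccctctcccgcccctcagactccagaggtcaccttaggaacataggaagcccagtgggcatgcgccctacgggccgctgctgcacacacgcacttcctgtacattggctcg
Uqcrh, chr4:116075071-116075320, minus strand: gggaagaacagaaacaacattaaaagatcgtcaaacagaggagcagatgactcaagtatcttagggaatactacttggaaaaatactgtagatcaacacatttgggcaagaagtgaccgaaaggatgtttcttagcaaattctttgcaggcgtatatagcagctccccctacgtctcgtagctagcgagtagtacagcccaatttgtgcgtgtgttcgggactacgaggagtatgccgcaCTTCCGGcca
Cox6a1, chr5:115348959-115349208, minus strand: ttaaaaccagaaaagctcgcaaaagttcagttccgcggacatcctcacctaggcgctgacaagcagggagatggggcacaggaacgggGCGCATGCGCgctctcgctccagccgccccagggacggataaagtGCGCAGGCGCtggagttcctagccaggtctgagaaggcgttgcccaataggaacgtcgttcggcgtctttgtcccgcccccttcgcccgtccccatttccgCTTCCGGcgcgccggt
Atp5d, chr10:80142025-80142274, plus strand: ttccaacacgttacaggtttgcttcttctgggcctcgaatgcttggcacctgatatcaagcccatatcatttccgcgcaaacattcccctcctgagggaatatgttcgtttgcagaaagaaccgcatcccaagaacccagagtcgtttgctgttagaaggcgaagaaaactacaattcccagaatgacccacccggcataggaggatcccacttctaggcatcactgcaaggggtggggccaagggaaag
Cox6a1 held the NRF1 letters at 2 places, 162 to 153 and 117 to 108 bases before the start, the first a palindrome that matches on both strands, and the GABP letters on the minus strand. Ndufaf8 and Uqcrh held the GABP letters, 8 to 2 and 10 to 4 bases before the start, and the other 3 printed stretches held none of the 3 motifs.

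Over the whole list, 76 of the 93 genes matched a RefSeq promoter, 1 of them by a synonym, with 81 promoters of 300 bases (250 before to 50 after the start). The NRF1 letters were in 24.7% of them, against 4.60% of all 32851 promoters and 9.92% of the 14099 promoters that overlap a shared peak. CCGGAAG was in 23.5%, against 8.86% and 17.3%, and AAGATGG in 14.8%, against 6.34% and 6.92%. These are matches of letters, not bound sites. The promoters of Sdha, Ndufa5 and Atp5o, whose RNA ratios in Foxp3-positive nuclei were -0.02, -0.93 and -0.59, all held the NRF1 letters. They were picked from the 19 genes of the list with those letters. Whether the letters go with the RNA ratio was not tested.

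Genes that work beside the chain did not all share its ratio. Assembly genes of complexes I, II, III and V outside the list had medians of 0.18, 0.17 and 0.25 over 4, 11 and 5 of 20 genes in Foxp3-positive, Foxp3-negative and Cd3-negative nuclei. The other complex IV assembly genes had medians of -0.05, -0.08 and -0.12 over 8, 11 and 8 of 19 genes. Within them Taco1, which activates translation of the mitochondrial COX1 RNA, had 58.3 CPM in knockout and 39.8 CPM in control Foxp3-negative nuclei (0.55, 0.29 to 0.81). Coa3, which stabilises newly made COX1 protein, had 8.81 and 19.4 CPM there (-1.13, -1.68 to -0.62).

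Regulators of mitochondrial gene expression had medians near 0 in Cd3-positive nuclei, at 0.02 over 6 of 17 genes in Foxp3-positive and -0.06 over 13 genes in Foxp3-negative nuclei, and -0.13 over 9 genes in Cd3-negative nuclei. Nrf1, the factor known for those letters, had 197 CPM in knockout and 166 CPM in control Foxp3-positive nuclei (0.25, 0.02 to 0.48), and Myc, a growth regulator, had 30.1 and 54.8 CPM (-0.86, -1.36 to -0.38). Cytochrome c, the electron carrier between complexes III and IV, is encoded by Cycs, which had log2 ratios of -0.29, -0.40 and -0.43 in the 3 populations. Cyc1, the complex III subunit outside the list, had 0.15 (-0.37 to 0.69), -0.32 (-0.62 to -0.03) and -0.08 (-0.46 to 0.29).

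Enzymes of the citric acid cycle had medians of -0.20, -0.15 and 0.02 over 13, 15 and 14 of 16 genes. Glycolytic genes had medians of -0.24, -0.15 and -0.09 over 13, 15 and 15 of 16 genes, with Slc2a3, a glucose transporter, at 48.2 CPM in knockout and 25.4 CPM in control Foxp3-positive nuclei (0.91, 0.38 to 1.495) and Pgk1, phosphoglycerate kinase, at 33.4 and 75.0 CPM (-1.16, -1.62 to -0.72). Mitochondrial ribosome genes had medians of -0.26, -0.24 and -0.20 over 15, 67 and 35 of 78 genes. The medians of the mitochondrial ribosome genes lie closer to the respiratory chain medians of -0.36, -0.30 and -0.21 than those of the assembly genes and regulators do.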

How the data were processed

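The deposited matrices hold raw UMI counts per gene and counts per peak for each barcode, which the authors made by Cell Ranger ARC, version 2.0.1 per the file headers, against mm10 per the submitters' processing notes. How reads that match several places were treated is not given in the sources used here, so counts of genes with processed pseudogenes are uncertain. Of the peak counts, 90.7% in the knockout and 91.7% in the control library were even, as ends of fragments would be, so their intervals rest on counts divided by 2 and rounded up.

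UMIs were summed per library and population. Levels are CPM, ratios carry a pseudocount of 0.5 UMI, and intervals are 95% exact Poisson intervals for levels and exact conditional intervals for ratios. UMI counts set the precision: 71 to 81 genes of the list reached 100 UMIs. No doublet caller was run; deep and double-labelled nuclei were left out as alternatives. Named genes were up to 4 highest and 4 lowest past the fold per population and the 2 with most UMIs per complex. Tissue-restricted pairs, genes without UMIs, ends of the other lists and, among genes matched to RefSeq, the most open promoter of each complex were added. Not every end of every list is given, and which ends and populations are given was not set by that rule. Uqcrfs1, Cox5a, Cox7a2l, Ndufc1, Ndufa6, Atp5g3, Ndufc2, Atp5l, Ndufaf7 and Ndufaf4 were named after their values were seen. So were the repeats of a gene in another population outside that rule. Genes and lists were chosen with earlier results of these data known. Kinases named Rps6k were left out of the ribosomal list, which the name rule alone would take. Scripts used Python 3.11.15, numpy 2.4.6, scipy 1.17.1, pandas 2.3.3 and matplotlib 3.10.9. The ratio and its interval were tried on Poisson counts drawn from control Foxp3-negative nuclei, with known folds set for some genes. Such counts hold no variation between animals or libraries, so the trial covers counting error only.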

Additional observations from a re-analysis of the deposited data

Results flagged for a closer look

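The summed share of the 93 genes in Cd3-positive over Cd3-negative nuclei had opposite signs in the libraries, with a log2 ratio of -0.054 in the knockout and 0.064 in the control library, and each interval lay on its own side of 0. The difference between the libraries was not tested, since each is 1 sample. In the knockout library the ratio was 0.18 without nuclei over 2 times the median UMIs, which held 67.6% of knockout and 40.8% of control Cd3-positive UMIs.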

How the results depend on the processing

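Of the recomputed values, 218 stayed within the counting interval of the reported value or within 1.5 times a reported count, 68 moved and none with a reported log2 ratio of at least 0.5 in size changed sign. Only mt- sums reached that size, so the check on sign covers no ratio of the 93 genes. Some within-library ratios of the 93-gene sum did change sign, as given below. Knockout over control log2 ratios of the 93-gene sum in Foxp3-positive, Foxp3-negative and Cd3-negative nuclei moved to -0.19, -0.20 and -0.24 after thinning and to -0.076, -0.22 and -0.25 without deep nuclei. In Foxp3-positive and Foxp3-negative nuclei they moved to -0.17 and -0.25 as a mean over nuclei, -0.14 and -0.26 without double-labelled nuclei and -0.41 and -0.32 with a total without mt- and ribosomal protein genes, an alternative chosen after seeing the data. With Cd3-positive nuclei from 2 UMIs, Foxp3-negative nuclei gave -0.31. The mt- sum in Foxp3-positive nuclei moved to -0.69 thinned, -0.91 without deep nuclei, -1.02 as a mean and -0.95 without double-labelled nuclei, and in Foxp3-negative nuclei to -0.87 thinned, -0.85 without deep nuclei, -0.84 as a mean, -0.98 from 2 Cd3 UMIs and -0.96 with the added total. The count of genes lower past the fold moved from 22 in Foxp3-positive nuclei to 3 without deep nuclei, 9 as a mean and 4 without double-labelled nuclei, from 13 in Foxp3-negative nuclei to 8 under each of thinning, no deep nuclei and no double-labelled nuclei, and from 1 in Cd3-negative nuclei to 7 thinned, 5 without deep nuclei, 6 as a mean, 3 from a minimum of 20 UMIs (8.37% of all genes) and 2 with the added total (3.63%). The count higher past the fold, reported as 0, became 1 in Foxp3-positive nuclei without deep nuclei and 1 in Foxp3-negative nuclei after thinning (4.01% of all genes). Medians over genes stayed below 0 in every alternative, from -0.40 to -0.05 in Foxp3-positive, -0.34 to -0.26 in Foxp3-negative and -0.26 to -0.21 in Cd3-negative nuclei. Promoter peak sums ran from -0.024 to -0.020 in Cd3-positive and from -0.012 to -0.0058 in Cd3-negative nuclei.

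Within libraries, the Foxp3-positive over Foxp3-negative log2 ratio of the 93-gene sum became, in the knockout, 0.012 thinned, 0.14 without deep nuclei, 0.042 as a mean and 0.084 without double-labelled nuclei, and in the control -0.10 from 2 Cd3 UMIs, 0.0085 thinned, -0.002 without deep nuclei and -0.035 without double-labelled nuclei. The Cd3-positive over Cd3-negative ratio became, in the knockout, 0.18 thinned, 0.18 without deep nuclei, 0.11 as a mean and 0.082 without double-labelled nuclei, and in the control 0.092 from 2 Cd3 UMIs, 0.15 thinned and 0.13 under each of the other 3. The mt- Foxp3 ratio became -0.055 thinned, -0.16 without deep nuclei and -0.15 without double-labelled nuclei in the knockout, and -0.067, -0.24, -0.099, -0.076 and -0.099 from 2 Cd3 UMIs, thinned, without deep nuclei, as a mean and without double-labelled nuclei in the control. The mt- Cd3 ratio became 0.53, 0.67, 0.61 and 0.58 thinned, without deep nuclei, as a mean and without double-labelled nuclei in the knockout, and 0.63, 0.67, 0.63 and 0.66 from 2 Cd3 UMIs, without deep nuclei, as a mean and without double-labelled nuclei in the control. After thinning no gene of the list reached 100 UMIs in Foxp3-positive nuclei, so that setting gave no median or count there. The cause of these moves was not tested. No paired analysis was possible because each genotype has 1 library, and no replicate could be left out.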
